A study of Mus musculus with 18 samples.

Results

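The miR-23-27-24 clusters are a pair of related miRNA gene clusters, and they were followed here through 18 small RNA libraries of BV-2 cells, a mouse microglial cell line. Their members were taken by name, as every hairpin (written mir) and every mature arm (written miR) of miR-23a, miR-23b, miR-27a, miR-27b and miR-24. The rule found 17 of the 2134 features in the deposited tables, 6 hairpins and 11 mature miRNAs, and no measured value entered it. The untreated control cells were compared with cells given 100 ng/ml LPS (lipopolysaccharide, a bacterial cell wall component that activates microglia) for 4 h, or 10 μM of a plant cannabinoid, CBD (cannabidiol) or THC (tetrahydrocannabinol), for 6 h. In the CBD+LPS and THC+LPS groups the cannabinoid was given 2 h before LPS. Each of the 6 groups held 3 samples, numbered between 22 and 39 in the labels. The labels do not say whether the samples of a group came from separate cultures, so the p-values measure the spread between these samples, which may be technical, and a single immortalized line was used throughout.

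A cluster of this kind is transcribed as a single precursor, from which the nuclease Drosha cuts out hairpins and Dicer then frees a duplex of a 5p and a 3p arm. One arm is usually kept by an Argonaute protein and the other is degraded, and the kept arm finds its target mRNAs mainly through its seed, the bases just after the 5′ end. In the miR-23 and miR-27 families the kept arm is the 3p arm. miR-27 is known as a repressor of Pparg, the nuclear receptor that restrains inflammatory genes and drives fat cell formation, and miR-24 as a regulator of the cell cycle.

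The sequences show which members can be told apart and which act through the same seed. RefSeq on GRCm38.p6 listed 10 of the 11 mature members. Capitals mark the seed, bases 2 to 8 from the 5′ end. miR-23b-3p is named only. miR-3074-5p is no member and is shown because it is read from the opposite strand of the miR-24 genes.
miR-23a-3p: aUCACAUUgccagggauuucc
miR-27a-3p: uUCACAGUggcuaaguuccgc
miR-27b-3p: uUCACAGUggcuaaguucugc
miR-24-3p: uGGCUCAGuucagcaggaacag
miR-27a-5p: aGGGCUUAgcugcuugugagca
miR-27b-5p: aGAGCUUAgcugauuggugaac
miR-24-1-5p: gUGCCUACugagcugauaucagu
miR-24-2-5p: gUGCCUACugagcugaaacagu
miR-3074-5p: gUUCCUGCugaacugagccagu

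The 3p arms of miR-27a and miR-27b share the seed UCACAGU and differ by a single base, C19U, counted from the 5′ end with the miR-27a-3p base first. Their 5p arms differ at 8 positions when aligned from the 5′ end, including G3A within the seed, so that the pair shares a 3p seed but not a 5p seed. The 5p arms of the miR-24 genes share the seed UGCCUAC and their first 16 bases. miR-24-3p is identical from both genes and cannot be assigned to one of the clusters. In all, the 10 sequences held 8 distinct seeds. miR-23b-3p, without a listed sequence, was not searched, but the Mir23b hairpin contains UCACAUU, the seed of miR-23a-3p. Among mouse miRNAs with a listed sequence, the only non-members with one of the 8 seeds were miR-6413, miR-6410, miR-6369 and miR-5124b. They carry that of miR-24-3p and summed to a mean of 7.27 CPM, the deposited read counts scaled for library size.

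The clusters lie on different chromosomes of GRCm38. Mir23a, Mir27a and Mir24-2 fill 404 bases at chr8:84208518-84208921 on the plus strand, with gaps of 79 and 56 bases between the hairpins. The nearest protein-coding gene is Zswim4, 1757 bases away, and Mir24-2 overlaps the start of the long non-coding RNA gene Gm26532. Mir23b, Mir27b and Mir24-1 fill 792 bases at chr13:63300484-63301275, also on the plus strand, with gaps of 154 and 423 bases. This cluster is inside the protein-coding gene 2010111I01Rik on the same strand, with Mir23b in an intron and Mir27b and Mir24-1 overlapping an exon of at least one annotated transcript. It is also inside an intron of Fancc, a Fanconi anaemia gene read from the opposite strand.

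The 18 libraries held between 442718 and 1057147 reads on miRNA features, with a median of 773271. A level of 3 reads, taken here as the floor, corresponded to 2.98 to 6.38 CPM, which covers counting error alone. The blood lineage miRNA miR-142-5p, a marker of microglia, stood between 7254 and 12346 CPM and miR-223-3p between 48.5 and 178 CPM, while the neuronal miR-124-3p was at 0 in 15 samples and the liver miR-122-5p in 13. Other markers of foreign cell types were counted in every sample, with miR-128-3p (neurons) at 409 to 651 CPM, miR-9-5p (neurons) at 2.98 to 14.9 CPM, miR-126-3p (endothelium) at 72.1 to 161 CPM and miR-200b-3p (epithelium) at 83.5 to 243 CPM, and the source of these reads was not tested. Samples of a group differed beyond sampling noise in each of the 18 pairs (chi-square per degree of freedom 3.04 to 98.6), most of all between a sample numbered 22 to 27 and a later one, and the labels name no batch. The abundant hairpins mir-6236, mir-6240 plus mir-6243, called the mir-6236 set below, took under 0.5% of the reads in 4 samples (control 22, THC+LPS 27, CBD 30 and CBD 36), and for results that rest on these samples values without them are given as well.

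Together the 17 members took between 7.01% and 9.94% of the reads of a sample. miR-27b-3p alone supplied 75.3% of these reads, at a mean of 64598 CPM over the 18 samples, and ranked 4 among the 2134 features. Far below it were miR-27a-3p with 6923 CPM, miR-24-3p with 5205 CPM, miR-23b-3p with 3106 CPM and miR-23a-3p with 2479 CPM. Every mature member was 21 to 23 bases long where its sequence was listed, so no correction for length was made. Whether different miRNAs are recovered equally well as reads was not tested. The division of reads between miR-27b-3p and miR-27a-3p is uncertain, since the arms differ by 1 base. Up to 10 mappings of a read were allowed in the alignment, and how reads with several mappings were counted is not given in the sources used here.

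The b cluster was the main source of miR-27 3p reads as counted, and the clusters were nearly even for miR-23 3p reads. miR-27b-3p made up between 86.3% and 92.3% of the miR-27 3p reads (median 90.6%, n = 18), and miR-23b-3p between 49.8% and 59.6% of the miR-23 3p reads (median 55.3%). For miR-24 the reads of the 5p arms leaned the other way. Whether they follow the balance of the clusters was not tested, and miR-24-3p, identical from both genes, cannot show it. miR-24-2-5p, from the a cluster, held between 95.8% and 97.9% of the reads on both miR-24 5p arms, at 1686 CPM against 55.6 CPM for miR-24-1-5p.

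The 5p arms of miR-23 and miR-27 were scarce, as passenger strands usually are. Their share of the reads on both arms was 1.79% to 5.25% for miR-27a, 1.03% to 2.06% for miR-27b, 1.21% to 2.19% for miR-23a and 0.253% to 0.791% for miR-23b. The hairpins held 428 CPM for mmu-mir-23a, 267 for mmu-mir-27b, 47.5 for mmu-mir-23b, 20.8 for mmu-mir-24-2, 19.4 for mmu-mir-27a and 2.37 for mmu-mir-24-1 on average. mir-23a stood apart relative to its arms. Its reads were 12.7% to 17.3% of all reads on mir-23a and its arms, whereas mir-27b held 0.276% to 0.496% of such reads, mir-27a 0.157% to 0.485% and mir-23b 1.01% to 1.999%. The lowest member was mir-24-1, with 32 reads over all samples and 0 reads in 2 of them, which allows up to 3 reads in each by counting error.

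The opposite strand of both miR-24 genes carries a miRNA of its own, miR-3074. The sequence of miR-3074-5p shares a run of 20 bases with the reverse complement of miR-24-3p. Its reads amounted to between 8.80% and 15.3% of those of miR-24-3p (median 10.3%, n = 18). Whether the authors' counting used the strand of a read is not given in the sources used here, so that reads of the pair cannot be told apart.

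**Figure D1:**
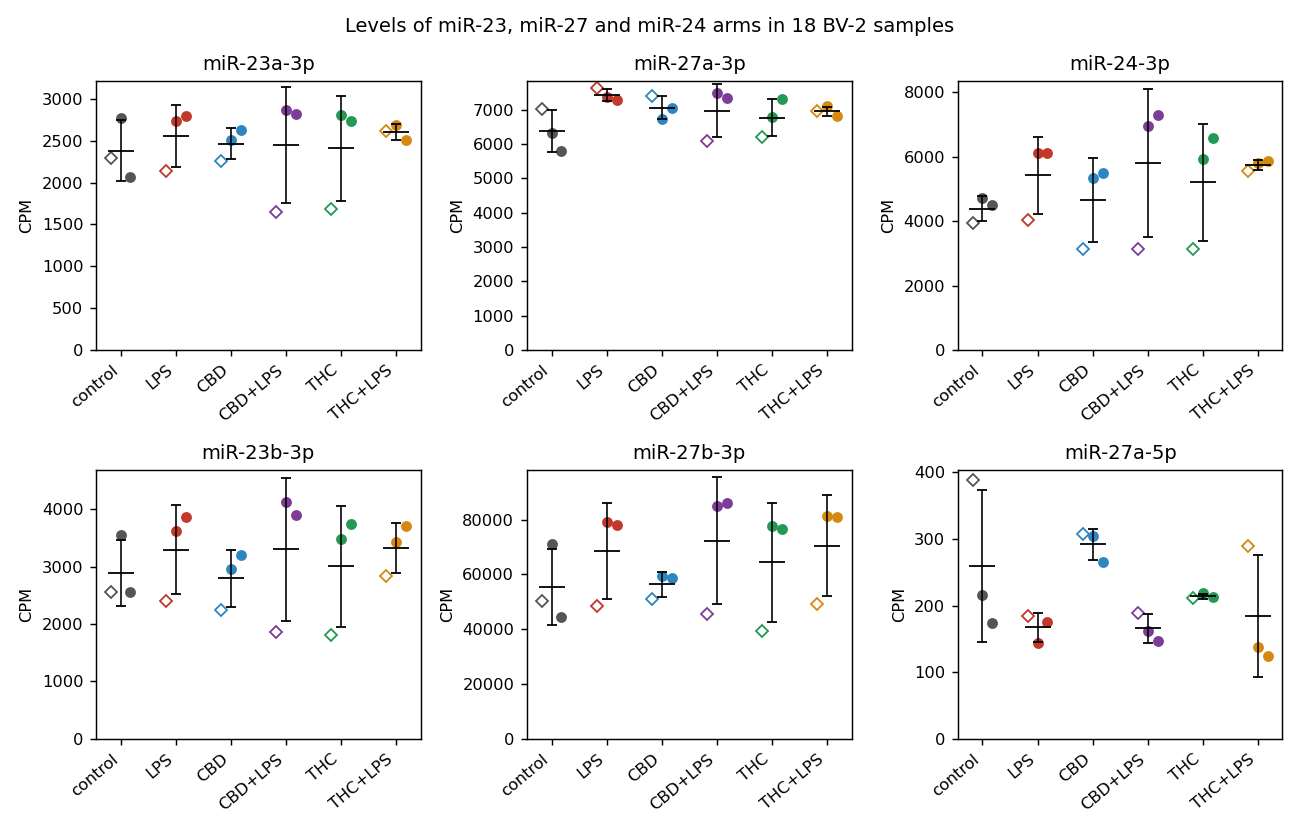
Levels in CPM (linear axes from 0) of 6 members in the 18 samples by treatment, where open diamonds are samples 22 to 27, filled points samples 28 to 39, and bars the mean ± SD of 3 samples. miR-27b-3p, miR-23b-3p and miR-24-3p were lower in samples 22 to 27 within most groups, while miR-27a-3p stayed between 5784 and 7632 CPM and miR-27a-5p had its lowest values in samples with LPS.

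Across treatments miR-27b-3p varied more between samples of a group than between groups. It stood at 50411, 71318 and 44560 CPM in the control samples, in the order of their numbers. The LPS samples held 48390, 79145 and 78179 CPM and the CBD+LPS samples 45475, 85069 and 86265 CPM. The THC+LPS samples were at 49089, 81342 and 81162 CPM. Each LPS-treated group thus had a low sample, the one numbered between 22 and 27, and a close pair above every control sample. Without LPS, the CBD samples were at 51099, 59447 and 58536 CPM and the THC samples at 39217, 77610 and 76455 CPM. The THC group thus had the same pattern without LPS, so the pattern is not particular to LPS-treated groups. The group means ran from 55430 ± 14067 CPM (SD, n = 3) in control to 72270 ± 23212 CPM in CBD+LPS, with all neighbouring groups in this order overlapping.

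The split by sample number was also seen in other members. The mean of samples 28 to 39 was 1.55 times that of samples 22 to 27 for miR-27b-3p, 1.54 times for miR-23b-3p and miR-24-3p, and 1.65 times for the mir-27b hairpin. Other members of the b cluster were at 1.33 times for miR-27b-5p and 1.27 times for miR-24-1-5p. Those of the a cluster were at 1.30 times for miR-23a-5p, 1.26 times for miR-23a-3p, 1.01 times for miR-27a-3p and 1.002 times for miR-24-2-5p, and miR-27a-5p went the other way, at 0.725 times. The difference between the clusters was not tested. Each set holds samples of all 6 groups, and what separates the sets was not tested.

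miR-27a-3p was the steadiest of the 3p arms. It ran from 5784 CPM in a control sample to 7632 CPM in an LPS sample, and its group means from 6374 ± 623 CPM (SD, n = 3) in control to 7427 ± 185 CPM in LPS. All 3 LPS samples, at 7632, 7381 and 7269 CPM, were higher than the control samples at 7024, 6315 and 5784 CPM. The difference on the log2 scale was 0.22 (SE 0.13), which with an adjusted p of 0.905 from limma did not pass the test.

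For miR-24-3p the group means ranged from 4392 ± 400.4 CPM (SD, n = 3) in control to 5801 ± 2305 CPM in CBD+LPS. For miR-23b-3p they ranged from 2802 ± 499 CPM in CBD to 3327 ± 442 CPM in THC+LPS, and for miR-23a-3p from 2382 ± 362 CPM in control to 2607 ± 90.6 CPM in THC+LPS. miR-24-2-5p, the most abundant of the 5p arms, had group means from 1555 ± 202 CPM in CBD+LPS to 1846 ± 156 CPM in LPS.

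The hairpins with enough reads to follow were mir-23a and mir-27b. For mir-23a the samples ran from 322 CPM in a THC sample to 514 CPM in a CBD+LPS sample, with group means from 387 ± 56.2 CPM (SD, n = 3) in THC to 446 ± 21.1 CPM in THC+LPS. For mir-27b they ran from 128.3 CPM in a THC sample to 419 CPM in a CBD+LPS sample, with group means from 205 ± 53.2 CPM in CBD to 322 ± 135 CPM in CBD+LPS. In each of the 10 members with at least 1000 reads, groups next to each other in the order of their means overlapped in all 5 neighbouring pairs. Sorting by mean makes such overlap likely, so it is a description and no test. It does not cover groups further apart in an order, and it was not compared with other features.

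The question of the study was which miRNAs LPS and the cannabinoids change. For these clusters the tests of single members gave none in the main limma model of all 18 samples, while some alternatives given below called members. limma's F test over all groups called 0 of the 17 members (adjusted p at most 0.1), beside 1.76% of all 1363 features tested. An unadjusted p of 0.05 or less was reached by 0 members and by 8.36% of all features, and the smallest member p was 0.0743 for miR-27a-5p (adjusted p 0.628 from limma). edgeR's quasi-likelihood test and DESeq2 on the recovered reads called 0 members as well, beside 1.83% and 2.86% of all features, and gave 0 members an unadjusted p of 0.05 or less.

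The groups were then compared in pairs, 15 in all, with a change called at an unadjusted p of at most 0.005 and at least 1.5-fold, the criterion of the study. LPS against control called 0 of the 17 members, where 1.54% of all features were called. CBD against control called 0 against a background of 1.61%, THC 0 against 0.44%, CBD+LPS 0 against 1.39% and THC+LPS 0 against 1.83%. The comparisons across treatments also called 0 members each, beside 1.61% of all features for CBD+LPS against CBD, 1.39% for THC+LPS against THC, 3.3% for LPS against CBD, 1.47% for LPS against THC, 2.64% for THC+LPS against CBD and 1.17% for CBD+LPS against THC. Over all 15 comparisons and 17 members, limma gave an unadjusted p of 0.05 or less in 7 of 255 tests, beside 6.9% over all features. edgeR gave 8 such tests and DESeq2 9. None of these tools called a member. For edgeR and DESeq2 no share over all features is given beside these counts and calls, so they are not read as a result about the members. The median log2 fold change of the members with LPS was 0.18, beside 0.11 over all features tested, and 0.02 beside 0.00 with CBD.

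The intervals show what sizes of change the data leave possible. With LPS the 95% interval of the log2 fold change was -0.35 to 0.95 for miR-27b-3p, -0.39 to 0.96 for miR-24-3p and -0.06 to 0.51 for miR-27a-3p. miR-155-5p, an LPS-responsive miRNA, changed by 3.33 in the same samples on the same scale. A 2-fold rise, or 1 on the log2 scale, was thus outside the intervals of these 3 arms.

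Adding a cannabinoid to LPS called 0 members. The background was 0.22% for CBD+LPS against LPS and the same for THC+LPS against LPS. miR-27b-3p differed from LPS alone by 0.05 with CBD+LPS (95% interval -0.60 to 0.70) and by 0.04 with THC+LPS (95% interval -0.61 to 0.69) on the log2 scale. The interaction of CBD and LPS, which asks whether the CBD effect differs between resting and activated cells, called 0 members in limma (adjusted p at most 0.1, background 0%). The interaction of THC and LPS also called 0, with the same background. An unadjusted p of 0.05 or less was found for 0 members in either, beside 4.77% of all features for CBD and 3.74% for THC. Pooled over resting and activated cells, limma called 0 members for CBD (background 0.293%) and 0 for THC (background 0%). In either, 0 members had an unadjusted p of 0.05 or less. No share over all features is given beside that last count, so it is not read as a result about the members.

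CBD and THC were given at the same dose and for the same time, which allows 2 direct comparisons, without and with LPS. In resting cells 0 of 17 members were called, where 3.3% of all features were. The largest difference among the members in favour of CBD was that of miR-27a-5p, 0.44 on the log2 scale (95% interval -0.20 to 1.09, adjusted p 0.519 from limma over all features). It held 307, 304 and 266 CPM in the CBD samples and 212, 218 and 212 CPM in the THC samples, so that every CBD sample was higher. CBD samples 30 and 36 are among those with a low share of the mir-6236 set, and the part of this share in the difference was not tested. Without the 4 samples of low share, where CBD 24 is the only CBD sample and is assumed to vary like the other groups, the difference was 0.52 (95% interval -0.08 to 1.12, adjusted p 0.616 from limma). With LPS, 0 members were called beside a background of 0.147%, and the interval for miR-27b-3p was -0.64 to 0.66. These intervals do not show that the cannabinoids act alike on the clusters.

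The effect of LPS was also estimated over all 9 samples with LPS against all 9 without, with the cannabinoid as a covariate. limma called 0 of 17 members here (adjusted p at most 0.1), beside 1.54% of all features. For 3 members, and 6.97% of all features, the unadjusted p was 0.05 or less. All 3 were 5p arms. edgeR's quasi-likelihood test also called 0 members (background 1.61%) and DESeq2 called 1, miR-27a-5p (background 2.27%). With library size alone as the scaling limma called 1, again miR-27a-5p, beside 2.2% of all features. The estimates for miR-23b-5p and miR-27b-5p were above 0 and that for miR-27a-5p was below it.

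**Figure D2:**
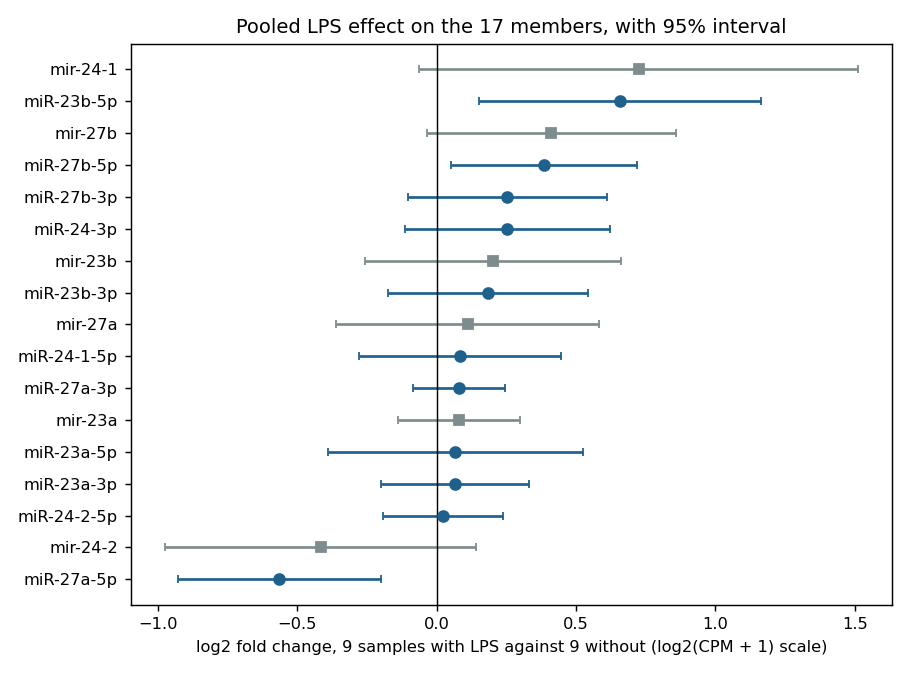
Log2 fold change with LPS (9 samples with LPS against 9 without, limma on log2(CPM + 1)) of each of the 17 members with its 95% interval, where circles are mature arms and squares hairpins. Of the 17 intervals, 3 exclude 0, those of miR-23b-5p, miR-27b-5p and miR-27a-5p, and none of these members had an adjusted p under 0.2.

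miR-27a-5p had the smallest p among the members. It stood at 389, 215 and 174 CPM in control. With LPS it stood at 184, 143 and 175 CPM. The CBD+LPS samples, at 189, 162 and 146 CPM, were all below the CBD samples given above. The THC+LPS samples held 290, 138 and 123.8 CPM, of which THC+LPS 27 was above the THC samples and the other two below them. The pooled log2 fold change was -0.56 (standard error 0.17, 95% interval -0.93 to -0.20) with an unadjusted p of 0.00426 and an adjusted p of 0.215 from limma. The highest value without LPS, in control 22, and the highest with LPS, in THC+LPS 27, belonged to samples with a low share of the mir-6236 set, as did those of CBD 30 and CBD 36, while CBD 24 had no such share. Adjusted for the level of these hairpins as a covariate, it was -0.44 (adjusted p 0.181 from limma). In the other 14 samples it was -0.56 and passed the threshold (adjusted p 0.0824 from limma), as did 1.69% of all features. With a covariate for samples 22 to 27 it was -0.56 and also passed (adjusted p 0.0386 from limma), as did 2.35% of all features.

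miR-23b-5p was measured from few reads, between 4 and 26 per sample. Its group means were 13.8 ± 5.15 CPM (SD, n = 3) in control, 9.11 ± 3.07 CPM in CBD and 12.03 ± 1.03 CPM in THC, against 15.5 ± 3.23 CPM in LPS, 21.1 ± 9.09 CPM in CBD+LPS and 20.8 ± 7.38 CPM in THC+LPS. The pooled log2 difference was 0.66 (adjusted p 0.404 from limma). miR-27b-5p stood at 791, 934 and 615 CPM in control and at 707, 974 and 976 CPM with LPS. It held 688, 783 and 767 CPM in the CBD samples, all below the CBD+LPS samples at 956, 1199 and 1212 CPM. The THC samples, at 408, 901 and 1037 CPM, overlapped the THC+LPS samples at 766, 1069 and 1031 CPM. Its pooled log2 difference was 0.38 (adjusted p 0.522 from limma). Both fail the correction.

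Over the 17 members the pooled LPS estimate was above 0 for 15 and below it for 2, mir-24-2 being the other. This count depended on the scaling. With library size alone, or with the reference miRNAs of the study for scaling, it was 8 above and 9 below 0, and the median over all features moved from 0.03 to -0.08 and -0.12 on the log2 scale. miR-27a-5p was below 0 under each scaling, between -0.74 and -0.56, and miR-23b-5p and miR-27b-5p were above 0 under each. miR-27a-3p changed sign, from 0.08 to -0.05 and -0.10.

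The ratio of a pair of arms within a sample does not depend on that scaling. For miR-27a the arms come from the same hairpin, printed here with both arms in capitals, from chr8:84208672-84208758.
Mir27a: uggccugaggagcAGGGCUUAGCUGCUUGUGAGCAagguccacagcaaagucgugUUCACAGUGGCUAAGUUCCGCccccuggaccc

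The reads of miR-27a-3p per read of miR-27a-5p numbered 18.05, 29.3 and 33.3 in control, and 41.4, 51.6 and 41.5 with LPS. In the CBD samples the ratio was 24.1, 22.2 and 26.6, and in the CBD+LPS samples 32.1, 46.2 and 50.1. Ratios of 29.3, 31.04 and 34.4 in the THC samples stood against 23.99, 51.3 and 55.0 in the THC+LPS samples. The LPS samples were all higher than the control samples, and the CBD+LPS samples all higher than the CBD samples. THC+LPS 27 was the exception, below all THC samples.

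On the log2 scale the miR-27a ratio was 0.65 higher with LPS, or 1.56-fold, with 0.78 in cells without a cannabinoid, 0.79 with CBD and 0.37 with THC, the last being 0.75 without THC+LPS 27. A 2-sided exact permutation test of the LPS labels within these 3 strata gave a p of 0.0035, of 8000 arrangements. Among the ratios of 162 miRNAs with both arms counted, tested in the same way after the data were seen, the adjusted p was 0.0709. With a threshold of 0.1 for the adjusted p, 9 of the 162 were called, 5.56%. The others were those of miR-155, miR-146a, miR-21a, miR-222, miR-221, miR-20a, miR-25 and miR-200a. The call depended on single samples, since the adjusted p ran from 0.00675 to 0.172 (exact permutation test) when each sample was left out in turn and it was above 0.1 in 11 of 18 cases. These were the cases without CBD 24, 30 or 36, THC 25, 31 or 37, LPS 29, CBD+LPS 32 or 38, or THC+LPS 33 or 39. The difference itself stayed between 0.56 and 0.77.

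The difference in the miR-27a ratio was above 0 in both sets of samples. It was 0.75 in samples 28 to 39, where the exact permutation p of 0.00926 is the smallest that their arrangements can give, and 0.44 in samples 22 to 27, which hold 1 sample per group. The latter was the mean of 1.19 without a cannabinoid, 0.41 with CBD and -0.29 with THC. Its exact permutation p was 0.5, and 8 arrangements cannot give a p below 0.25. In the 14 samples with at least 0.5% of reads on the mir-6236 set it was 0.69 (exact permutation p 0.0025, of 400 arrangements).

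**Figure D3:**
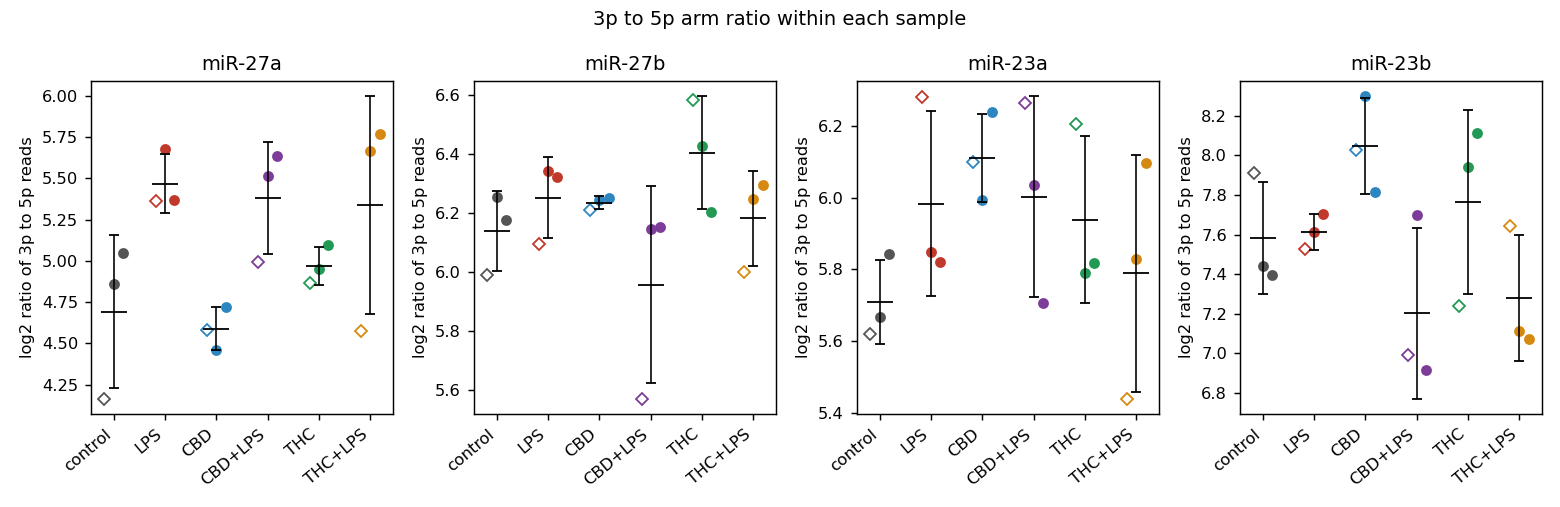
Log2 ratio of 3p to 5p reads within each sample for miR-27a, miR-27b, miR-23a and miR-23b, by treatment, where open diamonds are samples 22 to 27, filled points samples 28 to 39, and bars the mean ± SD of 3 samples. For miR-27a all LPS samples lie above all control samples and all CBD+LPS samples above all CBD samples, while THC+LPS 27 lies below the THC samples, and the axes do not start at 0.

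The other arm pairs went differently. The miR-27b ratio differed by -0.13 with LPS (exact permutation p 0.199) and the miR-23a ratio by 0.01 (exact permutation p 0.965). The miR-23b ratio was 0.43 lower in log2 units, a difference of -0.43 (exact permutation p 0.028, adjusted p 0.454 over the 162 miRNAs), with 0.03 in cells without a cannabinoid, -0.85 with CBD and -0.49 with THC. It rests on few miR-23b-5p reads and fails the correction. Among 13 ratios between members that were tested, the only other with an unadjusted p of 0.05 or less was mir-24-2 to mir-24-1, at -0.92 (exact permutation p 0.0308), where mir-24-1 held at most 5 reads in a sample.

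**Figure D4:**
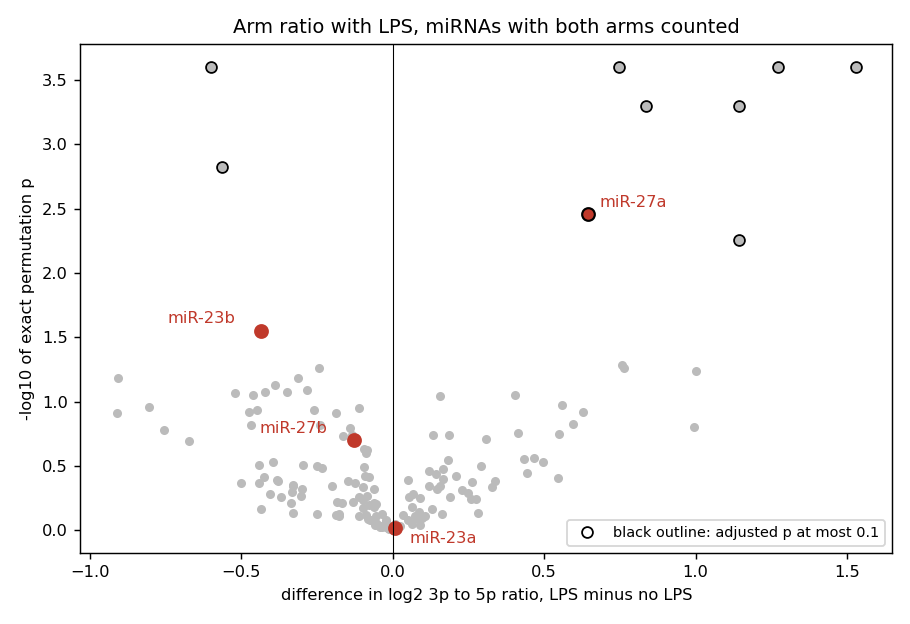
Difference in log2 3p to 5p ratio between samples with and without LPS (horizontal axis) against -log10 of the exact permutation p (vertical axis) for 162 miRNAs with both arms counted, with the 4 members in red and a black outline where the adjusted p is 0.1 or less. miR-27a lies at 0.65 among the 9 outlined miRNAs, miR-23b at -0.43 outside them, and miR-27b and miR-23a lie near 0.

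The main arms of the b cluster kept a steadier ratio than their levels. The log2 ratio of miR-27b-3p to miR-23b-3p had a standard deviation of 0.14 over the 18 samples, whereas the log2 levels spread by 0.37 and 0.36 (root mean square around the mean). Its difference with LPS was 0.07 (exact permutation p 0.305). The ratio of miR-27a-3p to miR-23a-3p, the partners in the a cluster, had a standard deviation of 0.20 and a difference of 0.01 with LPS (exact permutation p 0.889). Their log2 levels spread by 0.11 and 0.24, so this ratio was not steadier than miR-27a-3p. Nor was closeness particular to partners. By root mean square difference of centred log2 levels, miR-222-3p (0.0974) and miR-425-5p (0.106) were closer to miR-23b-3p than miR-27b-3p was (0.134). Between the clusters, miR-27a-3p to miR-27b-3p differed by -0.17 (exact permutation p 0.317) and miR-23a-3p to miR-23b-3p by -0.12 (exact permutation p 0.144).

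Within samples 28 to 39, 2 per group, more features were called and members were among them. The F test called 5 members, miR-24-3p, miR-27a-5p, mir-27b, miR-27b-3p and miR-27b-5p, where 18.2% of all features were called. CBD+LPS against control called 4, where 3.89% of all features were. These were miR-24-3p with a log2 fold change of 0.63, mir-27b with 0.65, miR-27b-3p with 0.60 and miR-27b-5p with 0.67, with adjusted p of 0.00145, 0.0884, 0.0656 and 0.0439 from limma. The pooled LPS effect called 2, miR-27a-5p at -0.63 and mir-27b at 0.51 (adjusted p 0.0115 and 0.0432 from limma), where 2.35% of all features were called. Both CBD samples of this subset, and none of its other samples, had the low share of the mir-6236 set. Without these CBD samples the F test, then over 5 groups, called 1 member, miR-24-3p, beside 1.47% of all features. CBD+LPS against control called the same 4 members, beside 4.11%, and the pooled LPS effect called 0, beside 2.27%, with miR-27a-5p at -0.50 (adjusted p 0.109 from limma). In this smaller subset THC+LPS against THC called miR-27a-5p by the unadjusted criterion, at -0.71 (adjusted p 0.143 from limma). No share of all features is given beside this call, so it is not read as a result about the members. The control samples of the subset, 28 and 34, differed by a chi-square of 51.6 per degree of freedom.

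The miRNAs whose profile over the 18 samples was most like a 3p arm were found by the root mean square difference between centred log2 levels, among 238 miRNAs of at least 100 CPM that are no members. For miR-27b-3p these were miR-125b-2-3p, at 0.104, and miR-22-3p, at 0.107. For miR-27a-3p they were miR-186-5p, at 0.0654, and let-7i-5p, at 0.0935. For miR-23b-3p they were miR-222-3p (0.0974) and miR-425-5p (0.106), and for miR-24-3p the same pair in the other order (0.121 for miR-425-5p and 0.134 for miR-222-3p). For miR-23a-3p they were miR-30d-5p, at 0.107, and miR-194-5p, at 0.125. The closest member was less close than these in each case but miR-24-3p, whose difference from miR-23b-3p, 0.131, fell between its nearest pair. These profiles share the libraries and the split between samples 22 to 27 and 28 to 39.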

How the data were processed

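Total RNA was prepared as small RNA libraries and sequenced by the authors, who aligned the reads to mouse miRBase entries with BWA and counted known miRNAs. The deposited values are CPM scaled with edgeR's TMM factors. In 11 samples the sums exceed what plain CPM allows, so the deposited unit was noted as a score there. Dividing by the smallest step gave whole reads for 100% of the values, within 0.001 reads. The alignment allowed at most 10 mappings of a read. How such reads or antisense reads were counted, and the miRBase version of the alignment, are not given in the sources used here.

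Values were transformed to log2(CPM + 1), with a pseudocount of 1, and tested with limma 3.58.1 (R 4.3.3, mean-variance trend) on the 1363 features with at least 10 reads over 18 samples, among them all 17 members. One model held the 6 groups, and an additive model gave the pooled effects. Tests were 2-sided and adjusted by the Benjamini-Hochberg method over all features. Arm ratios used log2(reads + 1) and an exact permutation test. edgeR 4.0.16, DESeq2 1.42.0, other scalings, filters and pseudocounts, subsets and each sample left out were alternatives. Scripts were tested on simulated data. Positions are from RefSeq on GRCm38.p6 and GENCODE M21. The members, lists and tests were chosen with earlier results of these data known. Every member is accounted for, and members with at least 1000 reads are given by sample or by the range of their group means. The quantitative PCR and mRNA results of the study were not analysed here.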

Additional observations from a re-analysis of the deposited data

How the results depend on the processing

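Over 35 alternatives, 18 of which left out a sample, 11 of 16 counts of called members kept their value. The comparisons across treatments, from CBD+LPS against CBD to CBD+LPS against THC, were not among these counts. In the F test 5 members were called in samples 28 to 39 alone and 1 there without CBD 30 and 36 (chosen after seeing the data), and with CBD+LPS against control 4 in either. With THC+LPS against control the count was 0 to 1 when a sample was left out, and the 1 was mir-24-2 without control 22 (background 1.47%). For the pooled LPS effect the count was 1 with library size alone (background 2.2%), 1 with DESeq2 (2.27%), 1 with a covariate for samples 22 to 27 (2.35%), 2 in samples 28 to 39 (2.35%), 1 in the 14 samples with at least 0.5% on the mir-6236 set (1.69%, also chosen after seeing the data), and 0 to 1 when a sample was left out, the 1 arising without THC+LPS 27 (1.61%). The change of miR-27a-5p stayed between -0.74 and -0.44 (log2) in these 35 alternatives, with adjusted p between 0.0113 and 0.409 from limma, edgeR or DESeq2. Of the 13 ratios 1 was called over all samples and 0 in samples 28 to 39. In that subset a single ratio at the smallest possible p cannot pass the correction (adjusted p 0.120 for the miR-27a arm ratio, exact permutation test). When a sample was left out, the count was 0 to 2 (2 without THC 25 or CBD 30, 0 without THC 31, THC+LPS 33 or THC+LPS 39). The cause was not tested. Of 8231 log2 fold changes of members under an alternative, 703 changed sign, none of them called. No paired analysis was run, since the groups share no replicate number, each of 22 to 39 being used once in the labels. The numbers do run as 22 to 27, 28 to 33 and 34 to 39, each run holding all 6 groups in the same order. The labels do not say whether a run is a replicate experiment, and neither the main model nor the permutation test used these runs. The main model had no term for samples 22 to 27, which entered as a covariate only in an alternative. Depth limits mir-24-1, miR-23b-5p and mir-27a most.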
